A study of Mus musculus with 4 samples.

Results

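The 9 genes described here encode transcription factors of the gut epithelium: the caudal homeobox factors *Cdx1* and *Cdx2*, the homeobox factors *Pdx1* and *Isx*, the zinc finger factors *Gata4* and *Gata6*, the nuclear receptors *Hnf4a* and *Hnf4g*, and the Krüppel-like factor *Klf5*. They were chosen by name, among 32585 genes or identifiers with a probe on the array. Each was measured by 1 probe, printed as 1 spot. Total RNA came from the duodenum and the spinal cord of male mice of 20 weeks, and was labelled with Cy3 and hybridized to 4 arrays, 1 for each genotype and tissue. The genotypes were IP6K2-/- mice, which lack exon 6 of *Ip6k2* (the exon for the kinase domain of this inositol hexakisphosphate kinase), and WT littermates. Both genotypes had the same feeding history: a last week on purified iVid-neo food in place of the normal CE-2 diet, and then 48 h without food. The duodenum was a segment cut from where the stomach ends. The labels do not say whether the duodenum and the spinal cord of a genotype came from the same mouse. With 1 array per group, no difference below has a replicate check, no test was made, and genotype cannot be told apart from mouse, dissection or hybridization.

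CDX2 and HNF4A act over most of the length of the intestinal epithelium, where they bind enhancers of genes for digestion and lipid handling, with CDX1 and HNF4G as their close relatives. GATA4 marks the proximal part of the small intestine, GATA6 is found more widely along the gut, and PDX1 is known from the pancreas and the proximal duodenum. KLF5 is known from the dividing cells of the crypts, and ISX is an intestinal homeobox factor that represses genes for the uptake and cleavage of carotenoids.

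Promoter sequences from RefSeq (build GRCm38.p6, 250 bases before a transcript start) were found for *Hnf4a*, *Cdx2*, *Pdx1* and *Isx*, 4 of the 9 genes, with 2 starts for *Hnf4a*. The promoters of *Hnf4a*, *Cdx2* and *Isx* are shown because these genes were bright in the duodenum and not well above background in the spinal cord. Capitals mark a match, on either strand, to a short GATA motif (AGATAA or TGATAA), CDX motif (CAATAAA or TTTATGA), HNF4 motif (CAAAGTC or CAAAGGT) or Krüppel-like factor motif (GGGTGTG or GGGCGTG). The first *Hnf4a* promoter is at chr2:163506607-163506856 (plus strand), the second at chr2:163546905-163547154 (plus strand), that of *Cdx2* at chr5:147307250-147307499 (minus strand) and that of *Isx* at chr8:74872924-74873173 (plus strand).
Hnf4a, first start: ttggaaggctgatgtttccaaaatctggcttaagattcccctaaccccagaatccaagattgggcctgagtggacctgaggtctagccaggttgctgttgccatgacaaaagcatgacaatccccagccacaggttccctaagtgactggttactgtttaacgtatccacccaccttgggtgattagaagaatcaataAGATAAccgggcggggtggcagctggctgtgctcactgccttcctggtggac
Hnf4a, second start: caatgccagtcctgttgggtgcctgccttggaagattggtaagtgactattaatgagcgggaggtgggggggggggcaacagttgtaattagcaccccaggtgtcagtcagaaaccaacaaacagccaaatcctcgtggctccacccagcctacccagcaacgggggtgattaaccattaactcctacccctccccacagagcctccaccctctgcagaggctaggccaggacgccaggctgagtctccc
Cdx2: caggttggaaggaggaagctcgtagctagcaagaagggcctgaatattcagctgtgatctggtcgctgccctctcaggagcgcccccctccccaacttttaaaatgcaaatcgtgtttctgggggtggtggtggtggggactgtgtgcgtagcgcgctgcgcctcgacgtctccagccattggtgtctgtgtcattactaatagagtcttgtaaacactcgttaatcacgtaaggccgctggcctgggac
Isx: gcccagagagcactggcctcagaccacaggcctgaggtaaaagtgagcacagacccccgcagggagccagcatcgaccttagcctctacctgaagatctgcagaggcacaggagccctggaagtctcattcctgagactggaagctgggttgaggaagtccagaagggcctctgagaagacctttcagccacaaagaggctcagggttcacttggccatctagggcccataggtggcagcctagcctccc
The single match in these promoters and that of *Pdx1* was AGATAA in the first *Hnf4a* promoter, from 52 to 47 bases before the start. Among 32851 mouse promoters of the same length, 9.99% held AGATAA and 16.6% held either GATA motif. The CDX motifs were found in 7.31% of all promoters, the HNF4 motifs in 7.24% and the Krüppel-like factor motifs in 13.8%. A match is a description of the letters only, and the files do not say which *Hnf4a* start gave the RNA that was measured.

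In the data, processed signal is the brightness of a spot after background subtraction, and a level is log2 of this signal minus the 75th percentile of the array. The 75th percentile was 68.0 on the WT duodenum array and 323 on the KO-labelled duodenum array, against 905 and 971 on the spinal cord arrays, so signals of the duodenum arrays are not comparable before scaling. The share of probes well above background was 51.6% and 66.3% for WT and KO-labelled duodenum, and 76.7% and 77.4% for spinal cord. The *Ip6k2* probe was lower by 0.21 (log2) in the duodenum of the IP6K2-/- label and higher by 1.45 in its spinal cord. Whether this probe lies in the deleted exon is not stated, so it does not settle the genotype, and the arrays of the IP6K2-/- label are called KO-labelled below. Markers fitted the tissue labels: on the arrays of each genotype, all 10 epithelial markers were at least 2-fold higher in the duodenum than in the spinal cord. All 10 were well above background on both duodenum arrays, as were 7 of them in WT and 8 in KO-labelled spinal cord. Of 9 neural and glial markers, 8 were at least 2-fold lower in the duodenum than in the spinal cord on the arrays of each genotype.

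All 9 factors were well above background on both duodenum arrays, and 2 of 9 were on each spinal cord array. The processed signal of *Cdx2*, the factor that sets intestinal identity, was 962 in WT and 4656 in KO-labelled duodenum, against 0.902 and 0.885 in WT and KO-labelled spinal cord. The signal of its relative *Cdx1* was 2203 and 7563 for duodenum, against 2.94 and 2.75 for spinal cord, with WT given first here and below. Both genes were far brighter on either duodenum array than on either spinal cord array, where neither was well above background. *Pdx1*, which is shared by pancreas and duodenum, had duodenal signals of 73.7 and 225 and spinal signals of 0.964 and 0.975. *Isx* had duodenal signals of 1146 and 4066 and spinal signals of 0.938 and 0.937. These 2 genes, too, were not well above background on either spinal cord array.

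The nuclear receptor *Hnf4a*, a regulator of lipid and digestive genes, had duodenal signals of 2432 in WT and 13159 in KO-labelled tissue, against spinal signals of 0.959 and 0.982. For *Hnf4g*, its relative, the duodenal signals were 234 and 964 and the spinal signals 0.983 and 0.993. Neither receptor was well above background in the spinal cord. *Gata4* had duodenal signals of 538 and 2793, and spinal signals of 5.26 (WT, well above background) and 2.84 (KO-labelled, not well above it). *Gata6* had duodenal signals of 415 and 2689, and spinal signals of 4.24 (WT, not well above background) and 5.65 (KO-labelled, well above it). The pair of GATA genes therefore lay at the edge of detection in the spinal cord, on opposite sides of it on the 2 arrays. *Klf5* was the only factor of the 9 well above background on all 4 arrays, with duodenal signals of 1276 and 5743 and spinal signals of 67.5 and 120.

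**Figure D1:**
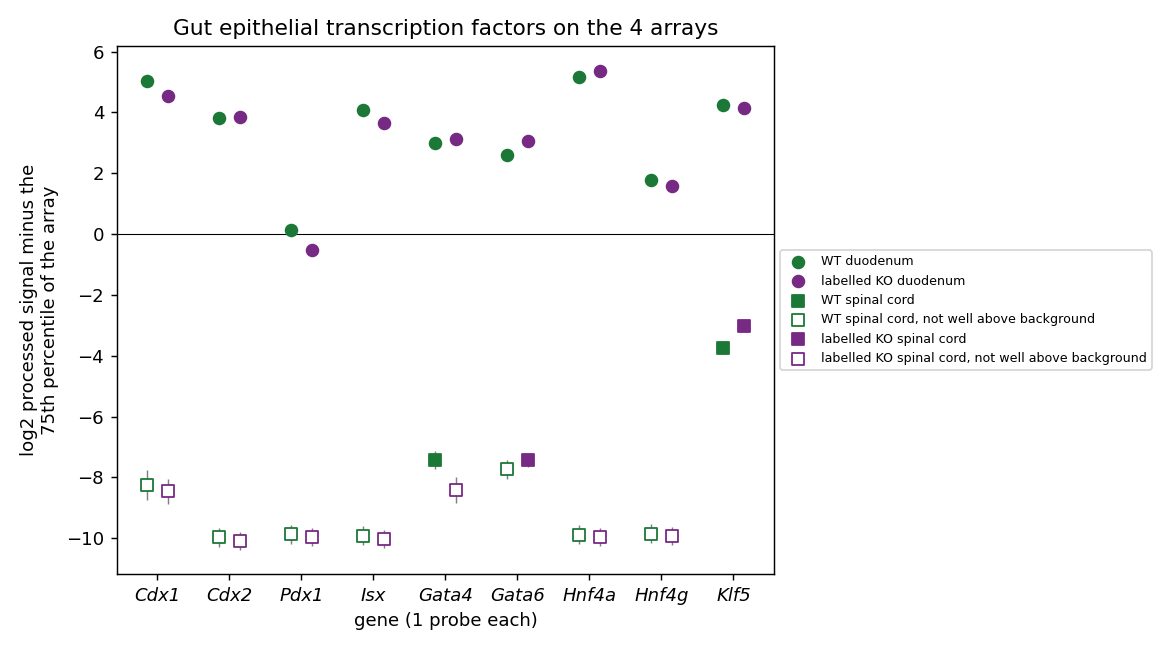
Level of each factor (log2 processed signal minus the 75th percentile of the array) on the 4 arrays, with 1 probe per gene. Circles are duodenum, squares are spinal cord, open squares were not well above background, and error bars are the technical SD of repeated spots of like brightness (often smaller than the symbol). All duodenum points lie above all spinal cord points, and *Klf5* is the only gene with both of its squares filled.

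The first comparison asked how the 9 factors differed between the tissues. In WT, all 9 were at least 2-fold higher in the duodenum, against 30.2% of 25223 genes, and none was 2-fold lower, against 23.1%. In the KO-labelled pair of arrays, all 9 were at least 2-fold higher, against 30.3% of 25728 genes, and none was 2-fold lower, against 25.4%. Because they were chosen as gut factors, this is a description and a check of the tissue labels. Where a gene was well above background only in the duodenum, the difference is a lower bound, set against the lowest level well above background on the spinal cord array or the gene's own level there, whichever was higher.

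*Hnf4a* was at least 12.82 (log2) higher in WT duodenum and at least 13.17 in the KO-labelled pair. *Cdx1* was at least 12.68 and 12.37 higher in the WT and the KO-labelled pair, respectively. *Cdx2* was at least 11.49 and 11.67 higher. These factors of intestinal identity thus had bounds above 11 in both genotypes. The bounds for *Isx* were 11.74 and 11.48, those for *Hnf4g* 9.44 and 9.40, and those for *Pdx1* 7.78 and 7.30. The bounds follow the brightness of each probe in the duodenum and do not rank the genes. They hold for this scaling alone: over 9 processing settings the *Hnf4a* value ran from 5.98 (with normexp, another background correction) to 13.05 in WT and from 9.26 to 13.44 in the KO-labelled pair, and the lowest value of any factor was 1.76, for *Pdx1* in WT with normexp.

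Measured differences, with the gene well above background in both tissues, were obtained for *Gata4* in WT, *Gata6* in the KO-labelled pair and *Klf5* in both. *Gata4* was higher by 10.41 in WT duodenum, and at least 10.93 higher in the KO-labelled pair. *Gata6* was at least 10.27 higher in WT duodenum and higher by 10.48 in the KO-labelled pair. *Klf5* was 252-fold higher (7.97, log2) in WT duodenum and 143-fold higher (7.16) in the KO-labelled pair. The size of the *Klf5* step depended on the scaling, from 2.81 with E1A control probes to 8.20 in WT and from 4.67 to 7.44 in the KO-labelled pair. The median gene well above background in both tissues was higher in the duodenum by 0.63 in WT and by 0.30 in the KO-labelled pair, far below any of the 9. Between the duodenum arrays, compared below, fewer epithelial cells and less RNA per epithelial cell cannot be told apart in such whole tissue.

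**Figure D2:**
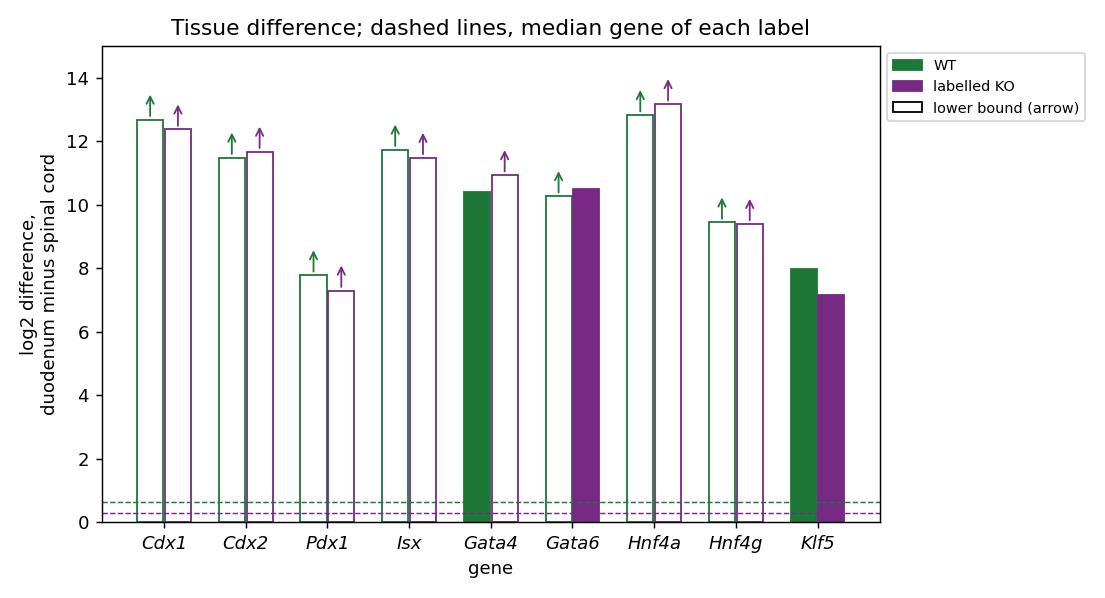
Difference in level (log2, duodenum minus spinal cord) of each factor, in the WT (green) and the KO-labelled (purple) pair of arrays. Filled bars are measured differences, open bars with an arrow are lower bounds, dashed lines are the median gene of each label, and all bars stand above 7.

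The genes whose 4 levels most resembled the median pattern of the 9 factors were sought among 12426 other named genes well above background on both duodenum arrays, with each gene centred on its own mean and likeness measured as Euclidean distance. A level not well above background was replaced by the lowest level well above background on its array. This floor, not a measurement, gives the spinal cord values of 7 of 9 factors on each array and those of *Bcl2l14* and *Epcam*. It also gives the WT spinal cord value of *Ceacam18*, and the distances and their order rest on it. The nearest were *Gm1123* (distance 0.092), *Bcl2l14* (0.19), *Vil1* (0.26), *Ceacam18* (0.27) and *Epcam* (0.27). *Vil1* encodes villin of the brush border and *Epcam* an adhesion molecule of epithelial cells. *Vil1* had duodenal signals of 4925 and 26801 and spinal signals of 36.0 and 40.5. *Epcam* had duodenal signals of 455 and 3053 and spinal signals of 2.46 and 1.98.

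The second comparison asked how the factors differed between genotypes in the duodenum. None of the 9 differed by 2-fold or more. Of 21436 genes, 7.2% were at least 2-fold higher and 11.9% at least 2-fold lower on the KO-labelled array. These genes had to clear background on either duodenum array, while the 9 factors did so on both. With 9 genes, a count of 0 does not show that the factors were steadier than other genes. The differences of the 9 factors ran from -0.64 for *Pdx1* to 0.45 for *Gata6*, with a median of -0.076. The median of all 16816 genes well above background on both arrays was -0.11. Relative to that median gene, 5 factors were higher and 4 were lower, and their median was 0.038. The technical SD quoted with each difference is that of probes printed 10 times on each array, of like brightness. It covers the spread between spots and not that between mice.

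The GATA genes and *Hnf4a* were on the higher side. The level of *Gata6* was 2.61 in WT and 3.06 in KO-labelled tissue, a difference of 0.45 ± 0.069 (technical SD, 1 array each), or 1.37-fold. *Hnf4a* went from 5.16 to 5.35, a difference of 0.19 ± 0.067. *Gata4* went from 2.98 to 3.11, a difference of 0.13 ± 0.067. These 3 differences exceeded their technical SD, and each stayed above 0, and above the median gene, in all 9 processing settings tried. Relative to the median gene, they were 0.56 for *Gata6*, 0.30 for *Hnf4a* and 0.24 for *Gata4*.

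*Cdx2* and *Klf5* differed least. *Cdx2* had levels of 3.82 and 3.85, a difference of 0.028 ± 0.067, within the technical SD. *Klf5* had levels of 4.23 and 4.15, a difference of -0.076 ± 0.067, which was above the median gene by 0.038. Both were above the median gene in all 9 settings, by up to 0.79 and 0.69.

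*Pdx1*, *Cdx1*, *Isx* and *Hnf4g* were on the lower side. *Pdx1* had levels of 0.12 in WT and -0.52 in KO-labelled tissue, a difference of -0.64 ± 0.089, or 1.56-fold lower. It was below the median gene in all 9 settings, with relative values between -0.66 and -0.32. *Cdx1* had levels of 5.02 and 4.55, a difference of -0.47 ± 0.067, and *Isx* had levels of 4.07 and 3.66, a difference of -0.42 ± 0.067. *Hnf4g* had levels of 1.78 and 1.58, a difference of -0.20 ± 0.076. The last 3 genes turned sign relative to the median gene in 2 of 9 settings, both with normexp, where *Cdx1* reached 0.29, *Isx* 0.32 and *Hnf4g* 0.36. The related pairs *Cdx1* with *Cdx2* and *Hnf4a* with *Hnf4g* lay on opposite sides of the median gene within each pair in 7 of 9 settings.

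**Figure D3:**
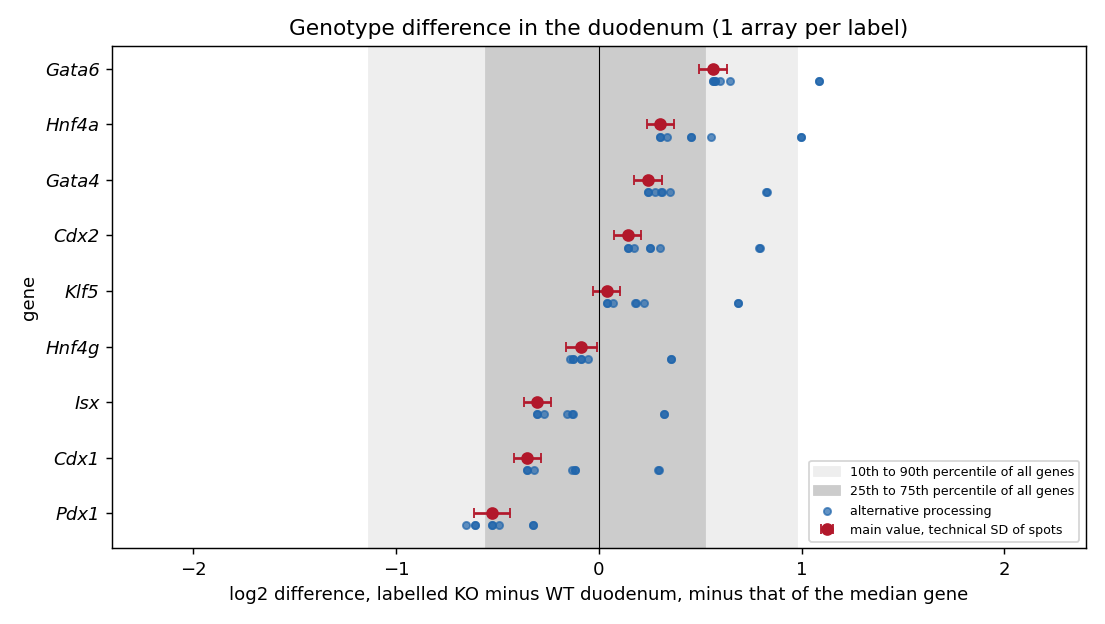
Difference in level of each factor between the KO-labelled and the WT duodenum array (log2), minus the difference of the median gene. Red points are the values given in the text with their technical SD, blue points are 8 other processing settings, and the grey bands hold the inner parts of the distribution of all 16816 genes, as the legend gives them. *Gata6* is highest at 0.56 and *Pdx1* lowest at -0.53, and all red points lie within the wide band, which spans -1.13 to 0.98.

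The scale mattered for the direct reading of these values. Before scaling, every factor was brighter on the KO-labelled array, from 3.05-fold for *Pdx1* to 6.48-fold for *Gata6*, and so was the 75th percentile of the array. With the arrays scaled on spiked-in E1A control probes, which were dimmer on the KO-labelled array (1175 against 2070), all 9 factors were higher there, by 2.42 to 3.51, and the median gene by 2.95. The order of the factors relative to the median gene was not touched by this.

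Markers of neighbouring organs also differed between the duodenum arrays, and the source of their RNA was not measured. Of 8 stomach markers, 4 were well above background on both arrays, and all of these were at least 2-fold higher on the KO-labelled array, with a median of 3.54. *Gkn2*, a secreted protein of the gastric surface, had signals of 27.6 in WT and 3238 in KO-labelled duodenum, and *Tff1*, a gastric trefoil peptide, 380 and 24914. The gastric mucin *Muc5ac* was higher by 3.29 and *Gkn3* by 1.01. All of these were higher under all 9 settings, and with normexp 3 of the 4 reached 2-fold. The *Gkn1* probe did not behave as a stomach marker here, with duodenal signals of 0.864 and 9.15 and spinal signals of 6674 and 5982. *Sox2* and *Barx1*, the transcription factors that define stomach, were not well above background on either duodenum array. *Gata4* and *Gata6* are also active in stomach, and the part of stomach RNA in their differences was not tested.

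All 11 pancreas markers were well above background on both duodenum arrays, and their summed level was 10069 times the 75th percentile in WT and 2732 times in KO-labelled duodenum. The median of the list was -0.94, or -0.83 relative to the median gene, and turned to 0.36 relative with quantile normalization of the 4 arrays. The acinar enzymes *Ctrb1*, *Cela3b* and *Cpa1* were lower on the KO-labelled array, with differences of -2.17, -2.06 and -1.99. These probes were among the brightest, with *Ctrb1* at signals of 190024 and 200070, and across the settings their differences from the median gene came as near to 0 as -0.29, -0.014 and -0.18. The beta cell hormones *Ins1*, *Ins2* and *Iapp* were higher by 1.43, 1.39 and 1.96, and stayed higher in all 9 settings. Of the rest of the list, *Rbpjl* and *Ptf1a*, regulators of acinar genes, were higher by 0.996 and 0.43. The enzymes *Cela2a* (-1.74) and *Pnlip* (-0.94) and the beta cell factor *Nkx6-1* (-1.84) were lower. *Pdx1* is made in beta cells as well as in the duodenum, and *Hnf4a*, *Hnf4g* and *Gata6* are also found in pancreas. The part of pancreas RNA in the duodenal values of the 9 factors was not tested.

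Of 27 other transcription factors of the gut epithelium, 26 were well above background on both duodenum arrays, and 23 of these differed by less than 2-fold. Their median difference was -0.13, or -0.012 relative to the median gene. *Vdr*, the vitamin D receptor, was higher by 1.06, and *Tcf7l2*, an effector of Wnt signalling, and *Maf*, of mature enterocytes, were lower on the KO-labelled array (-2.10 and -1.04). *Vdr* was above and *Tcf7l2* and *Maf* below the median gene in all 9 settings, and *Maf* came as near to it as -0.32. *Onecut2*, a homeobox factor, was higher by 0.35, with duodenal signals of 927 and 5618. In the tissue comparison, 24 of the 27 were at least 2-fold higher in WT duodenum and 26 of the 27 in the KO-labelled pair. Whether the 9 factors differ from this list was not tested.

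Of 11 relatives and cofactors of the 9 factors, 7 were well above background on both duodenum arrays, with a median of -1.11, and 4 were at least 2-fold lower on the KO-labelled array, where 11.9% of all genes were. With normexp the median was -0.58 and 2 of the 7 were 2-fold lower. The GATA family was divided. *Gata5*, a relative of *Gata4* and *Gata6* that is known from the gut and the heart, had duodenal signals of 669 and 505 and spinal signals of 281 and 259. Its difference in the duodenum was -2.65, and it was below the median gene in all 9 settings, with relative values between -2.54 and -1.81, where *Gata4* and *Gata6* were above it. *Zfpm1* (FOG-1, a cofactor of GATA factors) and *Klf2* (a Krüppel-like factor of endothelium and lymphocytes) were lower (-1.17 and -1.12, and -0.58 and -0.66 with normexp). *Gata2*, of blood and endothelium, was lower (-1.11), with signals of 21.9 and 48.3. *Klf7* was higher by 0.78.

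Of 13 genes known as targets of these factors in the small intestine, 12 were well above background on both duodenum arrays. Their median difference was -0.022, or 0.093 relative to the median gene. None was at least 2-fold higher, and 3 were at least 2-fold lower on the KO-labelled array, 1 with normexp and 0 with quantile normalization of the 4 arrays. These were *Fabp2*, the intestinal fatty acid binding protein (-1.81), and the apolipoproteins *Apob* (-1.56) and *Apoa1* (-1.56). All 3 were below the median gene in all 9 settings, and came as near to it as -0.17 (*Fabp2*), -0.37 (*Apob*) and -0.44 (*Apoa1*). *Fabp2* had signals of 91061 and 122969, and the part of such brightness in its difference was not tested.

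*Cdh17*, the intestinal cadherin and a target of CDX2, was higher by 0.53, and *Lct*, which encodes lactase, a target of CDX2 and GATA4, by 0.33. *Apoc3*, *Mttp* and *Apoa4*, of lipoprotein assembly, were higher by 0.27, 0.16 and 0.090. These 5 genes stayed above 0 and above the median gene in all 9 settings. *Ccnd1*, which encodes cyclin D1, was higher by 0.64. Whether the differences of targets go with those of their factors was not tested. *Sis* (sucrase-isomaltase, a target of CDX2) had a difference of -0.26 and *Scarb1*, a target of ISX, of -0.13, and both changed sign with the setting. So did *Heph*, which encodes hephaestin, a ferroxidase (-0.37). *Bco1*, the carotenoid oxygenase that ISX represses, had duodenal signals of 0.864 and 7.92, of which only the second, in KO-labelled tissue, was well above background, and no fold can be given. Targets of CDX2 thus lay on both sides of 0 with the scaling of the text, while *Sis* was above 0 in 6 of 9 settings.

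**Figure D4:**
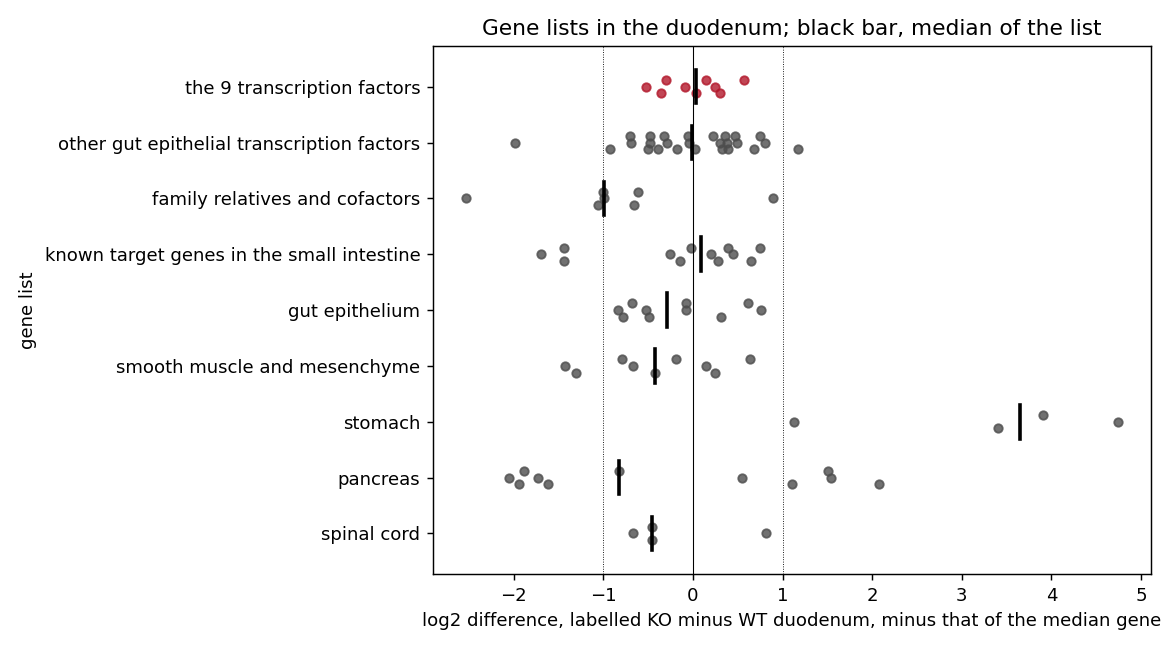
Differences between the KO-labelled and the WT duodenum array (log2), minus that of the median gene, for the 9 factors (red) and for lists of related genes and tissue markers (grey), each point 1 gene well above background on both arrays. Black bars are list medians and dotted lines mark 2-fold. The 9 factors all lie within the dotted lines, the stomach list has a median of 3.65 and the pancreas list of -0.83, which turns to 0.36 with quantile normalization of the 4 arrays.

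The summed level of the 10 epithelial markers was 1059 times the 75th percentile in WT and 738 times in KO-labelled duodenum, against 1.26 and 1.35 times in spinal cord. Their median difference in the duodenum was -0.40, none reached 2-fold, and the sign of the median turned to 0.26 with quantile normalization. *Epcam*, *Cdh1* and *Vil1* were higher by 0.50, 0.64 and 0.20. *Tspan8*, a tetraspanin (-0.95), the keratins *Krt19* (-0.90) and *Krt18* (-0.79) and the galectin *Lgals4* (-0.64) were lower. So were *Cldn7* (-0.60), *Krt20* (-0.20) and *Krt8* (-0.19). Smooth muscle and mesenchymal markers had a median of -0.54 (-0.43 relative to the median gene), with 2 of 9 at least 2-fold lower, the muscle genes *Actg2* (-1.55) and *Des* (-1.42). *Lum* differed by -0.91, *Cnn1* by -0.78, *Acta2* by -0.54 and *Tagln* by -0.30. *Pdgfra*, *Myh11* and *Col1a1* were higher by 0.53, 0.14 and 0.029. With normexp the median was 0.16 relative to the median gene, and none reached 2-fold. The share of epithelium in each piece of duodenum was not measured, and its part in the differences of the 9 factors was not tested.

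The third comparison asked the same of the spinal cord, where 3 of the 9 factors could be compared. None reached 2-fold by its value or bound, against 2.28% of 25223 genes at least 2-fold higher and 0.864% at least 2-fold lower on the KO-labelled array. Only *Klf5* had a measured value. *Gata4* and *Gata6* had lower bounds, which do not show that their differences were under 2-fold. *Klf5* had levels of -3.75 and -3.01, a difference of 0.73 ± 0.091 (technical SD), or 1.66-fold, and the median gene differed by -0.038. This value was above 0 in 8 of 9 settings and -0.94 with normexp. *Gata4* was lower by at least 1.31-fold and *Gata6* higher by at least 1.18-fold, both at the edge of detection. In log2 these bounds were -0.39 and 0.24, smaller in size than their technical SD of 0.51 and 0.39. For *Gata4* the bound was -2.43 (log2) with normexp.

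Markers of other cells moved on the same spinal cord arrays. Of 9 smooth muscle and mesenchymal markers, 3 were at least 2-fold higher on the KO-labelled array and none was 2-fold lower, the median was 0.072, and their summed level was 4.13 and 5.43 times the 75th percentile. *Des*, of muscle, had signals of 18.3 and 213, *Lum*, of connective tissue, 46.7 and 123, and *Col1a1*, a collagen, 412 and 887. The contractile genes *Cnn1* (-0.47), *Actg2* (-0.37) and *Myh11* (-0.23) differed the other way, while *Tagln* (0.40) and *Acta2* (0.072), also contractile, were higher. Of 10 epithelial markers, 2 were at least 2-fold higher there: *Cdh1*, which encodes E-cadherin, had signals of 2.13 and 38.1 and *Tspan8* of 4.82 and 28.1, while *Krt18*, *Krt20*, *Vil1*, *Lgals4* and *Cldn7* differed by -0.029 to 0.096 and *Epcam* was dim (not well above background) on both arrays. The part of such cells in the *Klf5* value was not tested.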

How the data were processed

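Groups of 1 array each were compared: WT and IP6K2-/- duodenum and spinal cord. The authors scanned 1-colour Agilent mouse arrays with Feature Extraction (11.5.1.1, per the labels) and deposited spot intensity values, of which the processed signal is background-subtracted and detrended, and a table of normalized log2 values. The deposited log2 values of the 9 genes matched quantile-normalized log2 processed signals rebuilt here within 0.0034 on the duodenum arrays. Scale and direction are thus known, and the table was used as an alternative.

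Control and outlier spots were left out, spots of a probe were averaged (39429 probes), log2 was taken and the 75th percentile of each array subtracted. RefSeq accessions of probes were matched to symbols (25868 of 26391), and the probe with the highest mean stood for a gene. The technical SD of a difference came from 399 probes printed 10 times (median SD of the 50 nearest in brightness, combined over both arrays). No test was made. The genes named were the 9 factors, from each list the 3 with the largest duodenal differences and the brightest, and the 5 nearest patterns; others on the lists were named after their values were seen. The 9 genes and the 10 lists (107 genes, 1 without a probe) were chosen with earlier results of these data known. Of markers for liver and for ileum or colon, 1 gene each was well above background on both duodenum arrays (*Tat*, -0.90, and *Slc10a2*, -0.64), and 4 of 9 spinal cord markers were (median -0.57, with *Snap25* at -0.78, *Mbp* at 0.70 and *Mog* at -0.57). *Car1*, the brightest ileum or colon gene, was well above background only on the KO-labelled array, with no fold. Alternatives were normexp (offset 50, on median signals, with and without replacing outlying local backgrounds), quantile normalization of 4 arrays or within tissue, median centring, E1A scaling (8 probes), the deposited table, the mean of probes, filters on dim probes and a 1.5-fold limit. For the duodenal differences several of these settings cannot, or hardly, differ from each other, so a count of settings is not a count of independent checks. Python 3.11.15, pandas 2.3.3, R 4.3.3 and limma 3.58.1 were used.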

Additional observations from a re-analysis of the deposited data

Results flagged for a closer look

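*Klf5* was the only one of the 9 factors with a measured difference between genotypes in both tissues, and the signs were opposite: -0.076 for duodenum against 0.73 for spinal cord (log2, KO-labelled minus WT), which are -0.81 apart. Each value rests on 1 array per genotype, so the difference between tissues was not tested. The duodenal value was above 0 in 6 of 9 processing settings, so the opposite signs depend on the scaling.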

How the results depend on the processing

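The only called differences of the 9 factors were those between tissues, for genes chosen as gut factors, and 0 of these changed sign. The genotype differences in the duodenum, none of them called with the scaling of the text, were less steady. They changed sign over the settings for *Cdx1*, *Isx*, *Hnf4g*, *Klf5* and, with E1A scaling alone, *Pdx1*. The spinal cord difference of *Klf5* changed sign with normexp. The 9 tissue differences stayed above 0 in both genotypes in all 9 settings, with the lowest WT value at 1.76 (*Pdx1*, normexp). With both arrays required well above background, 2 factors instead of 9 could be counted as at least 2-fold higher in the duodenum, in the WT and in the KO-labelled pair, because the others were dim in the spinal cord. Scaling on E1A probes put 9 instead of 0 factors at least 2-fold higher on the KO-labelled duodenum array. A 1.5-fold limit called 1 factor lower there (*Pdx1*), where 22.6% of all genes were, and 1 higher in the spinal cord (*Klf5*), where 5.23% were, and normexp called 1 lower in the spinal cord (*Gata4*, a bound). The median duodenal difference of the 9 relative to the median gene, 0.038, was 0.69 with normexp and 0.69 with outlying local backgrounds replaced, 0.18 with quantile normalization of 4 arrays, 0.22 within tissue and 0.18 in the deposited table. The cause was not tested. Of single values, 59 moved by less than the technical SD and 165 by more. No paired analysis was possible because each group had 1 array. Precision is limited by there being 4 arrays.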
